A study of Mus musculus with 12 samples.

Results

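The genes described here are 10 members of the epidermal growth factor (EGF) signalling family in mouse embryonic fibroblasts: the ligands Ereg, Areg, Hbegf, Tgfa, Btc and Nrg1, the receptors Egfr, Erbb2 and Erbb3, and Errfi1, an inhibitor that acts on the receptors inside the cell. They were taken by symbol, through the RefSeq accession of each probe, and are carried by 12 of the 39429 probes of the array. Of the 10 genes, 8 passed the filter on dim probes and were tested among 19507 genes in all, while Tgfa and Erbb3 did not pass it.

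The study cultured fibroblasts from embryos at E12.5 of Itpr2 knock-out (KO) and wild-type (WT) mice in medium with serum and compared them after 3 passages (early) and after 5 (late). The gene Itpr2 codes for 1 of the inositol trisphosphate receptors, channels that let calcium out of the endoplasmic reticulum. The 4 groups were KO late, WT late, KO early and WT early, each with 3 arrays, and the series describes the cells as coming from 3 independent sources of each genotype. The sources used here do not give the mouse strain, the deleted part of Itpr2, or whether the late cultures continued the early ones.

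The family works by contact between a soluble ligand and a receptor kinase. The ligands are made as membrane proteins, are cut loose by metalloproteases, and bind Egfr or its relatives, which pair up, phosphorylate each other and switch on the Ras-ERK and PI3-kinase pathways. Erbb2 has no known ligand of its own and acts as the partner of the other receptors. ERK activity in turn raises the transcription of early response genes, among them several of the ligands and Errfi1, which binds the active receptor kinase and shuts it off. In fibroblasts this loop is best known from the response to serum and growth factors.

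Promoter sequences were at hand in RefSeq for 6 of the 10 genes, namely Areg, Tgfa, Btc, Egfr, Erbb2 and Errfi1, the last with 2 start sites. The 250 bases before each start site were searched on both strands for 6 short motifs: the cyclic AMP response element TGACGTCA, the AP-1 site TGANTCA, the EGR site GCGNGGGCG, the GC box GGGCGG, which can overlap an EGR site, the TATA box TATAAA and the E-box CACGTG. The sequences of Areg and of the second Errfi1 start are shown because both held the response element and a TATA box. That of Btc, a neighbour of Areg, is shown because it held none of the 6 motifs. Capitals mark the response element and the TATA box. Each is written 5′ to 3′ on the strand of the gene, in the build GRCm38.p6, ending 1 base before the start site. Areg lies at chr5:91139349-91139598 on the plus strand, Btc at chr5:91402995-91403244 on the minus strand and the second start of Errfi1 at chr4:150854820-150855069 on the plus strand.
Areg: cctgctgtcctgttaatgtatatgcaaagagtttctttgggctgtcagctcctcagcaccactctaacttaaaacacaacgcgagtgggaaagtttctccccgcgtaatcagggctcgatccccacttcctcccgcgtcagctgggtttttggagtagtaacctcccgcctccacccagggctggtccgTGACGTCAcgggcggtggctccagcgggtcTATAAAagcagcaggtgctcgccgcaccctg
Errfi1: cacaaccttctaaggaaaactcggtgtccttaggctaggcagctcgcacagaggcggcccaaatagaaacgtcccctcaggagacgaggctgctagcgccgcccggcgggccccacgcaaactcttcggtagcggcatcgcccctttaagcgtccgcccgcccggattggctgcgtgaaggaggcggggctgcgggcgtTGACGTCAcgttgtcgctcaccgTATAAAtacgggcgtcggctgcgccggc
Btc: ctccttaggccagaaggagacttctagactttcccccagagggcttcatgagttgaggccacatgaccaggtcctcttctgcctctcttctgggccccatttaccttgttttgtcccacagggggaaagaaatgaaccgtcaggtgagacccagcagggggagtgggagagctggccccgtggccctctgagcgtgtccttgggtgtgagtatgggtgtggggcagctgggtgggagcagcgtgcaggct
In Areg the response element ran from -61 to -54 and the TATA box from -31 to -26, counted from the start site. In Errfi1 they ran from -51 to -44 and from -28 to -23. Among 32851 promoter windows of the same length, 1.55% held the response element, 12.4% the TATA box and 0.119% both. The AP-1 site was in 6.75% of all windows, the EGR site in 4.7%, the E-box in 6.02%, and none of these was in a window of the 6 genes. The GC box was in 32.7% of all windows and in those of Areg, Tgfa, Egfr and the second Errfi1 start. The windows of Erbb2 and of the first Errfi1 start held none of the 6 motifs. A match is a run of letters and was not tested as a binding site.

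Facts of the whole series bear on the values as follows. Between 59.1% and 67.5% of the probes of an array were well above background. The median spread of a gene between arrays of a group was 0.0839 in KO late, against 0.16 in WT late, 0.141 in KO early and 0.214 in WT early (SD of log2 values, n = 3 each). Xist, which females transcribe from their silenced X chromosome, was above background on the arrays of KO late replicates 1 and 2, WT late replicate 1 and WT early replicate 1, and on 0 of the 3 KO early arrays, so the groups were not matched for it. KO late replicate 1 carried both Xist (-1.09) and Ddx3y, a gene of the Y chromosome (-0.14), while the KO early arrays carried Ddx3y without Xist, so in KO passage and the embryos of origin cannot be told apart. In WT, Xist was in replicate 1 alone at both passages. Without KO late replicates 1 and 2 the calls over all genes numbered 165 between KO late and KO early, against 3696 with them, and 1 between KO late and WT late, against 1528 with them. A lone KO late array is left there, with its spread taken from the other groups, and what the smaller number of arrays and Xist each contribute cannot be told apart. The Itpr2 probe averaged 1.76 ± 0.058 in KO late against 1.61 ± 0.11 in WT late, and 1.35 ± 0.23 in KO early against 0.95 ± 0.28 in WT early (SD, n = 3), which does not check the genotype, since no source used here places the probe relative to the deletion. All 14 fibroblast markers were measured. Their summed signal was 940 to 1042 times the 75th percentile in KO late, 860 to 976 in WT late, 1112 to 1188 in KO early and 1038 to 1246 in WT early. In KO late against WT late Col3a1 and Twist1 were called higher and Thy1 and S100a4 lower, where 3.46% and 4.37% of all genes were. With passage in KO Twist1 rose and Prrx1, Thy1 and S100a4 fell, where 9.95% and 9% of all genes did. In WT 0 markers rose and Prrx1, Col1a2 and Col5a1 fell, where 6.22% and 4.37% of all genes did. The levels below are log2 intensities relative to the 75th percentile of each array. A level of 0 is thus the 75th percentile, levels of different probes are not compared, and a difference of 1 is a doubling. Tests are limma's moderated tests in 1 model of all 4 groups, with Benjamini-Hochberg adjustment over 19507 genes and a threshold of 0.05.

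With passage, several of the ligands and Errfi1 rose. In KO cells 4 of the 8 tested members rose between early and late passage (Ereg, Hbegf, Btc and Errfi1) and 0 fell, where 9.95% of all genes tested rose and 18.9% changed in either direction. In WT cells 5 rose (the same 4 and Areg) and 0 fell, where 6.22% of all genes rose and 10.6% changed. Btc and Areg are dim genes that passed the filter only through the late groups, so their calls say nothing for the family. Of the 6 members well above background on all 12 arrays, 3 rose in each genotype (Ereg, Hbegf and Errfi1) and 0 fell, where 9.05% of the 17429 such genes rose in KO and 5.63% in WT. All 4 genes called in KO were also called in WT, and 4.03% of all genes rose in both genotypes. Late and early arrays did not overlap for 7 of the 8 members in KO, where 51.9% of all genes had no overlap, and for 6 of the 8 in WT, where 27.7% had none, both counts including the dim Btc. The median difference of those 6 members was 0.86 in KO and 1.09 in WT, beside -0.059 and -0.019 over the 17429 genes. The KO late arrays enter both the passage comparison in KO and the genotype comparison at late passage, so the 2 comparisons are not independent. Without KO late replicates 1 and 2, which leaves a lone KO late array assumed to vary like the other groups, only Errfi1 kept its call in KO (1.92, adjusted p = 0.0305). The differences of Ereg, Hbegf and Btc were then 1.45, 1.29 and 2.47, no smaller than with all arrays.

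**Figure D1:**
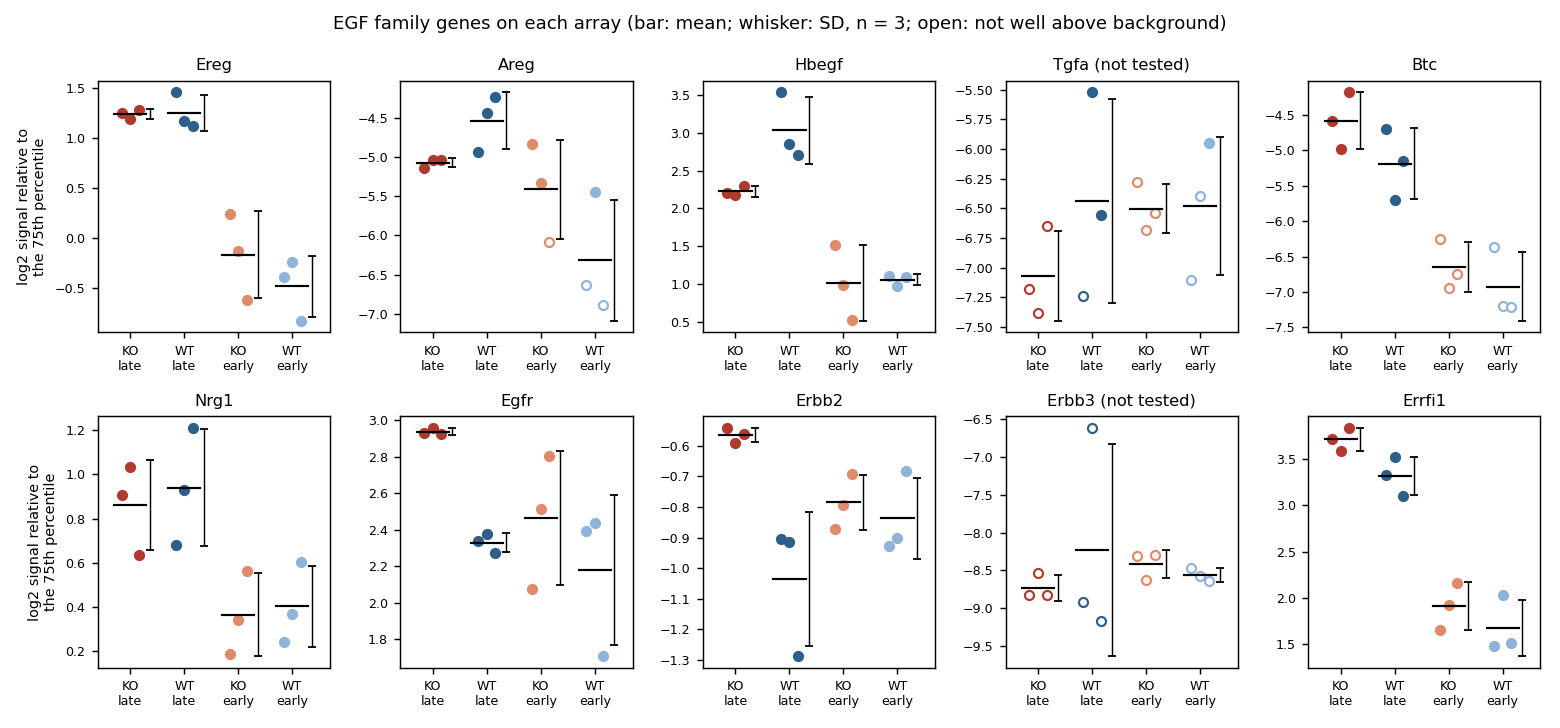
Log2 signal of the 10 genes relative to the 75th percentile (y axis, 1 scale per gene) on each array, for KO late, WT late, KO early and WT early (x axis). Filled points were well above background, open points were not, the horizontal bar is the mean and the whisker the SD of 3 arrays. All late points of Ereg, Hbegf, Btc, Nrg1 and Errfi1 lie above all early points of the same gene, and Egfr is tightly grouped near 2.94 in KO late, above WT late.

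Ereg encodes epiregulin, a broad ligand that activates Egfr and Erbb4. It read 1.25, 1.19 and 1.29 on the KO late arrays, against 0.24, -0.13 and -0.62 on the KO early arrays. It read 1.46, 1.17 and 1.12 on the WT late arrays, against -0.39, -0.24 and -0.83 on the WT early arrays. Every late array was higher than every early one, and the late arrays of the 2 genotypes overlapped. The rise was 2.66-fold in KO (1.41 ± 0.21 on the log2 scale, SE, adjusted p = 0.00262, limma, n = 3) and 3.33-fold in WT (1.74 ± 0.21, adjusted p = 0.00208). At late passage the KO minus WT difference was -0.0091, with a 95% interval from -0.48 to 0.46, and differences within it could not be told from 0. Without KO late replicates 1 and 2 the rise in KO was 1.45 with an adjusted p of 0.0899.

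Hbegf, the heparin-binding ligand, which also serves as an early response gene in many cells, followed a like course with one difference. It read 2.20, 2.17 and 2.30 on the KO late arrays, against 1.52, 0.99 and 0.52 on the KO early arrays. It read 3.54, 2.86 and 2.70 on the WT late arrays, against 1.11, 0.97 and 1.096 on the WT early arrays. All late arrays were above all early arrays, and all 3 KO late arrays were below all 3 WT late arrays. The rise was 2.32-fold in KO (1.21 ± 0.25, adjusted p = 0.00972, limma, n = 3) and 3.93-fold in WT (1.97 ± 0.25, adjusted p = 0.00234). At late passage Hbegf averaged 2.23 ± 0.068 in KO and 3.03 ± 0.44 in WT (SD, n = 3), a difference of -0.81 ± 0.25 (SE) that missed the threshold (adjusted p = 0.0766, limma). On the slides, which each carried 1 array of every group, it was -1.33, -0.69 and -0.40. Without KO late replicates 1 and 2 the rise in KO was 1.29 with an adjusted p of 0.154.

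Macrophage markers, all 16 of which were measured, were looked at beside that Hbegf difference. Of these, 15 had a negative KO minus WT difference at late passage and 2, Lyz2 and Cd68, passed the test, where 4.37% of all genes were lower. The median of the 16 was -1.09 beside -0.0081 over all genes. In limma's model 14 of the 16 had an unadjusted p under 0.05, where 24.9% of all genes had one. With the replicate number as a block in limma's model, Lyz2 kept its call (adjusted p = 0.0472) and Cd68 lost it (adjusted p = 0.0747). With passage in WT, where the ligands named above rose, 14 of the 16 had a positive difference with a median of 0.82, and Lyz2 passed (1.33 ± 0.33, adjusted p = 0.0315). In KO, where Hbegf also rose, 5 of the 16 were positive with passage, with a median of -0.11. Their summed signal was 45.0 to 86.5 times the 75th percentile in KO late, 92.3 to 150.6 in WT late, 59.0 to 80.9 in KO early and 62.8 to 121.4 in WT early. Macrophages can make Hbegf and other ligands of the family. In such bulk samples fewer cells of a type and less RNA per cell cannot be told apart, and the part of these cells in the Hbegf values and in the other ligands' rise in WT was not tested. The passage response of Hbegf in KO minus that in WT was -0.76 ± 0.36 (adjusted p = 0.376), so the difference in response did not pass either.

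Areg encodes amphiregulin, an Egfr ligand whose gene is a known target of cyclic AMP signalling, and its promoter is printed above. Its probe was dim: it was well above background on 3 KO late, 3 WT late, 2 KO early and 1 WT early arrays, so it passed the filter only through the late groups. It read -5.14, -5.04 and -5.04 on the KO late arrays, against -4.83, -5.32 and -6.08 on the KO early arrays. It read -4.94, -4.43 and -4.23 on the WT late arrays, against -6.63, -5.44 and -6.89 on the WT early arrays. The KO groups overlapped, while the WT groups did not. The WT difference, against early arrays of which 2 were not well above background, was 1.79 ± 0.39 (adjusted p = 0.0198, limma, n = 3) and the difference in KO was 0.34 ± 0.39 (adjusted p = 0.574). These 2 responses were not shown to differ: KO minus WT was -1.45 ± 0.55 (unadjusted p = 0.0249 and adjusted p = 0.297 in limma's model). The WT call changed with the arrays and the background correction. The adjusted p was 0.0598 without WT early replicate 3, 0.0561 without WT late replicate 2 and 0.0561 without WT late replicate 3. With normexp background correction the difference was 0.27 with an adjusted p of 0.189.

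Btc encodes betacellulin, which binds Egfr and Erbb4. It was well above background on all 3 KO late and all 3 WT late arrays and on 0 of the 6 early ones, so it passed the filter only through the late groups and had to differ from the early ones. It read -4.58, -4.98 and -4.18 on the KO late arrays, against -6.26, -6.95 and -6.75 on the KO early arrays. It read -4.71, -5.71 and -5.15 on the WT late arrays, against -6.37, -7.19 and -7.22 on the WT early arrays. The early level is only a bound, taken on each array as the dimmest signal that still counted as well above background or as Btc's own signal, whichever was higher. Against it, Btc was at least 3.24-fold higher in KO and at least 2.37-fold higher in WT, and these bounds were not tested. The limma test used the fitted values, early signals below background included. It gave 2.07 ± 0.32 in KO (adjusted p = 0.00296, n = 3) and 1.74 ± 0.32 in WT (adjusted p = 0.0108). The WT call was lost after quantile normalization (adjusted p = 0.148) and after normexp (a difference of 0.10, adjusted p = 0.508). In KO without late replicates 1 and 2 the adjusted p was 0.0541.

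Nrg1 encodes neuregulin 1, the ligand of Erbb3 and Erbb4, of which neither was measurable here. It read 0.91, 1.04 and 0.64 on the KO late arrays, against 0.19, 0.34 and 0.56 on the KO early arrays. It read 0.68, 0.93 and 1.21 on the WT late arrays, against 0.24, 0.37 and 0.60 on the WT early arrays. The late arrays were above the early ones in both genotypes by a small margin. The differences were 0.50 ± 0.17 in KO (adjusted p = 0.0622, limma, n = 3) and 0.54 ± 0.17 in WT (adjusted p = 0.0666), neither of which passed. Over all genes, late arrays lay above early ones without overlap in all 6 against 6 arrays for 6.85%. Among the 8 members Ereg, Hbegf, Btc, Nrg1 and Errfi1 did so, Btc having passed the filter only at late passage.

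Tgfa, transforming growth factor alpha, stayed near the detection limit. Its probe, printed in 10 spots, was well above background on 0 KO late, 2 WT late, 0 KO early and 1 WT early arrays. It read -7.18, -7.38 and -6.65 on the KO late arrays, against -7.24, -5.52 and -6.55 on the WT late arrays. On the early arrays it lay between -6.68 and -6.28 in KO and between -7.10 and -5.95 in WT. No fold change or test was made from these values.

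Errfi1 encodes the receptor inhibitor also called Mig6. It showed the smallest adjusted p of the 8 members in both passage comparisons. It read 3.72, 3.59 and 3.84 on the KO late arrays, against 1.65, 1.93 and 2.16 on the KO early arrays. It read 3.33, 3.52 and 3.11 on the WT late arrays, against 1.49, 2.03 and 1.52 on the WT early arrays. The gap between late and early arrays was far wider than the spread within any group. The rise was 3.48-fold in KO (1.80 ± 0.18, adjusted p = 0.000416, limma, n = 3) and 3.12-fold in WT (1.64 ± 0.18, adjusted p = 0.00127), and on the slides it ran from 1.66 to 2.06 in KO and from 1.49 to 1.85 in WT. Both calls held under all 24 alternative settings. All 3 KO late arrays were above all 3 WT late arrays, by 0.39 ± 0.18 on average, which did not pass (adjusted p = 0.207).

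**Figure D2:**
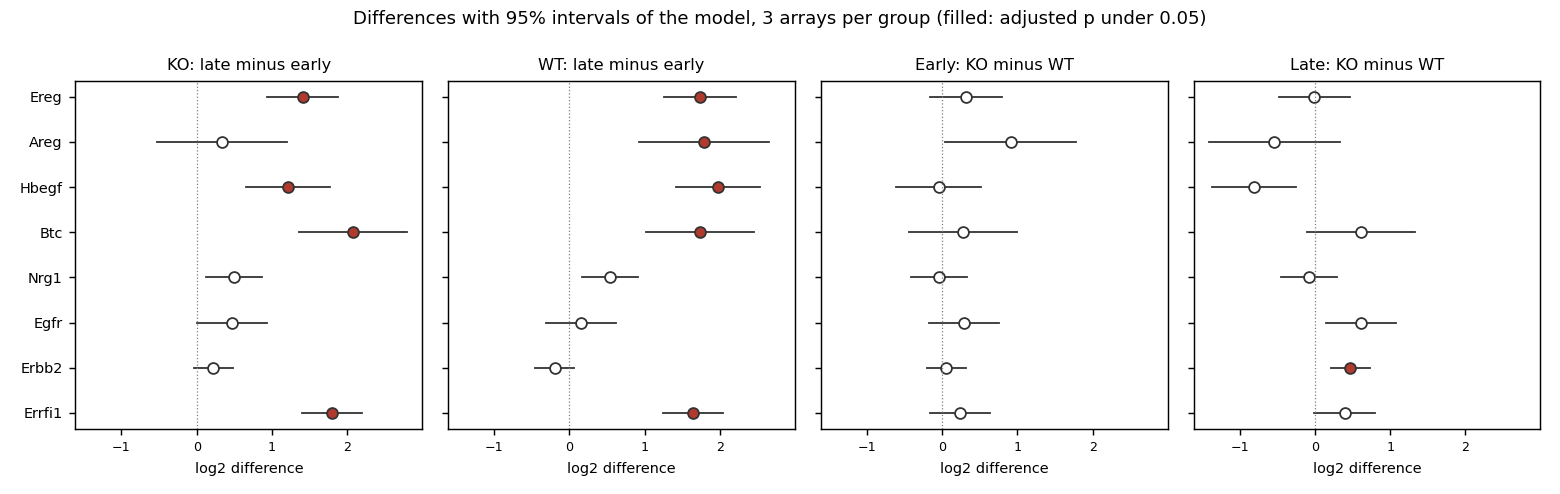
Log2 differences of the 8 tested genes (points) with the model's 95% intervals (lines), for late minus early passage in KO and in WT and for KO minus WT at early and at late passage, 3 arrays per group. Filled points had an adjusted p under 0.05: 4 in the KO passage panel, 5 in the WT passage panel, 0 at early passage and 1, Erbb2, at late passage.

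The receptors, by the probes that stand for their genes, did not pass the test with passage. Of the 8 tested members 1, Erbb2, was called between KO late and WT late, where 7.83% of all genes were called and 3.46% were called higher. The KO late and WT late arrays did not overlap for 5 of the 8 (Hbegf, Areg, Egfr, Erbb2 and Errfi1), and for 39.3% of all genes. One call in 8 is near that share and is no result about the family. Between KO early and WT early limma called 0 of 8 members, where 0.0359% of all genes were called, 0 members had groups without overlap, where 9.54% of all genes did, and 1 member, Areg, had an unadjusted p under 0.05, where 5.99% of all genes did. The passage response of KO minus that of WT was called for 0 of 8 members, where 0.0871% of all genes were called by limma, and 2 members, Areg and Erbb2, had an unadjusted p under 0.05, where 13.9% of all genes did.

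Egfr, the founding receptor of the family, was read by 3 probes, 1 designed on the accession NM_207655 and 2 on NM_007912. The first probe, printed in 10 spots and the brightest, read 2.93, 2.96 and 2.92 on the KO late arrays, against 2.34, 2.37 and 2.27 on the WT late arrays. On the early arrays it read 2.08, 2.51 and 2.81 in KO, against 2.39, 2.44 and 1.71 in WT. All KO late arrays were above all WT late arrays, and the early groups overlapped widely. The late difference was 0.61 ± 0.21 (1.53-fold, adjusted p = 0.102, limma, n = 3) and did not pass. It passed in 4 of 24 alternative settings. The adjusted p was 0.00991 with only the 2 groups, 0.0311 with array weights, 0.038 with the mean of kept probes and 0.0368 without WT early replicate 3.

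The other Egfr probes gave late differences of about the same size, with a smaller error in the model. Their spread was lower than that of the first probe in both early groups but higher in WT late, where the SD was 0.12 for A_55_P1956862 and 0.19 for A_55_P1956863, against 0.051 for the first. Probe A_55_P1956862 read -0.39, -0.38 and -0.34 on the KO late arrays, against -0.94, -0.89 and -1.13 on the WT late arrays. Probe A_55_P1956863 read 0.065, 0.089 and 0.076 on the KO late arrays, against -0.46, -0.40 and -0.76 on the WT late arrays. When every kept probe was tested on its own, 24359 in all, the late KO minus WT differences were 0.62 ± 0.15 (adjusted p = 0.0367) and 0.61 ± 0.16 (adjusted p = 0.0459), where 7.68% of probes were called. In the same fit both were higher in KO late than in KO early, by 0.66 ± 0.15 (adjusted p = 0.0152) and 0.66 ± 0.16 (adjusted p = 0.0198), where 17.7% of probes were called. In WT the passage differences of the 3 probes were 0.15, 0.11 and 0.13, with adjusted p values from 0.64 to 0.687, where 9.76% of probes were called. The 3 probes thus had late KO minus WT differences of 0.61 to 0.62 but fell on different sides of the threshold. With the replicate number as a block in limma's model, A_55_P1956862 kept its late call (adjusted p = 0.048) and A_55_P1956863 lost it (adjusted p = 0.0576). The passage response of KO minus that of WT was 0.56 and 0.53 for the 2 dimmer probes (adjusted p = 0.303 and 0.34) and did not pass.

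**Figure D3:**
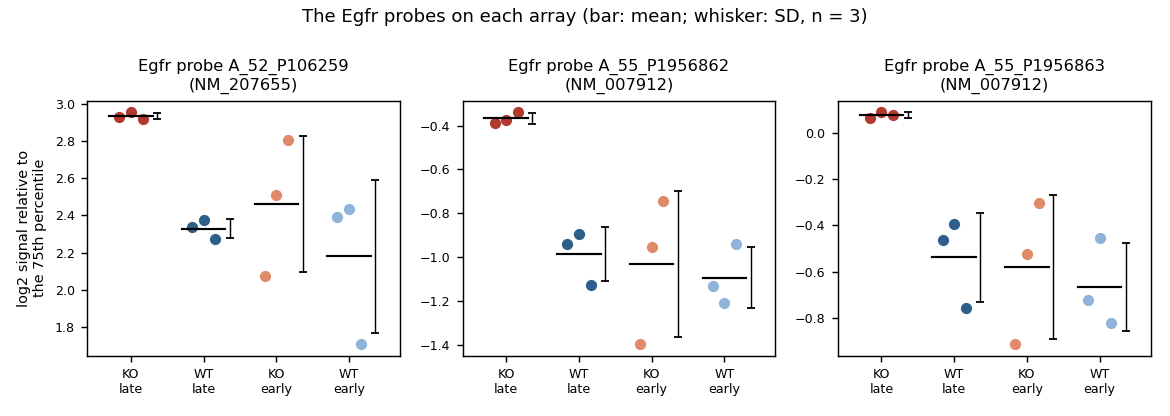
Log2 signal of the 3 Egfr probes relative to the 75th percentile (y axis, 1 scale per probe) on each array of KO late, WT late, KO early and WT early (x axis). Points are arrays, bars the means and whiskers the SD of 3 arrays. In all 3 probes the KO late arrays lie above the WT late arrays without overlap.

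Erbb2, the partner receptor, read -0.54, -0.59 and -0.56 on the KO late arrays, against -0.90, -0.91 and -1.29 on the WT late arrays. On the early arrays it read -0.87, -0.79 and -0.69 in KO, against -0.93, -0.90 and -0.68 in WT. The late groups did not overlap and the early groups did. Erbb2 was 1.38-fold higher in KO late than in WT late (0.47 ± 0.12, adjusted p = 0.038, limma, n = 3), and the slide values were 0.36, 0.32 and 0.73. The call was lost in 10 of 24 alternative settings, with adjusted p values from 0.0103 to 0.408 over all of them. It was 0.132, 0.0992 and 0.107 without KO late replicates 1, 2 and 3, 0.0925 without WT late replicate 3, where the difference was 0.34, and 0.0664 without KO early replicate 2. With Xist as a covariate the adjusted p was 0.0678 and the difference 0.46. The passage response of KO minus that of WT was 0.42 ± 0.16 (adjusted p = 0.311).

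Erbb3, the receptor of neuregulins, was well above background on 0 of 12 arrays, with readings between -9.16 and -6.62. Erbb4, which is not a member, was well above background on 0 arrays as well. Of the epithelial and keratinocyte markers 7 of 12 were measured and Epcam, Cdh1, Krt5, Krt8 and Grhl2 were not. Their summed signal was 4.05 to 4.29 times the 75th percentile in KO late, 4.90 to 5.68 in WT late, 3.90 to 5.56 in KO early and 3.90 to 6.003 in WT early, and their part in the receptor values was not tested. Krt19, the 1 marker of the 7 called at late passage, was lower in KO by 2.06 on the log2 scale (-2.06 ± 0.39, adjusted p = 0.0157). Over all genes 4.37% were lower there. With passage in KO 2 of the 7 fell and 0 rose, where 9% of all genes fell. They were Krt18, by 2.67 (adjusted p = 0.0126, limma), and Krt19, by 1.75 (adjusted p = 0.0134). In WT 0 of the 7 were called, where 10.6% of all genes were. Schwann cell, neural crest and melanocyte markers, another source of Erbb3 and neuregulin signalling, had 6 of 11 measured, and Foxd3 was not among them. Their sums were 7.45 to 9.55 in KO late, 8.62 to 10.5 in WT late, 4.61 to 6.65 in KO early and 4.38 to 7.05 in WT early. The sums were higher at late passage, but the members were split, with 3 of 6 positive in KO (median -0.047) and 4 of 6 in WT (median 0.28). S100b, a glial calcium-binding protein, fell by 1.08 in KO (adjusted p = 0.0375) and by 1.72 in WT (adjusted p = 0.00992). The part of such cells in the ligand values was not tested. Cartilage markers had 9 of 10 measured, of which 5 were higher in KO late than in WT late, where 3.46% of all genes were, among them Sox9, a transcription factor of cartilage, by 1.40 ± 0.15 (adjusted p = 0.00194). Their sums were 26.5 to 42.6 in KO late, 25.9 to 31.1 in WT late, 29.2 to 39.8 in KO early and 21.9 to 76.5 in WT early, and their part in the receptor values was not tested. Muscle markers had 3 of 8 measured, without Myod1 and Myog. With passage 2 of them fell in both genotypes, where 9% of all genes fell in KO and 4.37% in WT. Des, the muscle filament desmin, was above background on 3 KO early and 0 KO late arrays. It was at least 11.1-fold lower in KO, a bound that was not tested. The fitted difference of Des in KO was -4.33 ± 0.30 (adjusted p = 0.000109, limma). In WT Des was 3.77-fold lower (adjusted p = 0.00623). Actc1, cardiac actin, was above background on 3 arrays of each early group and 0 of each late group. It thus passed the filter only through the early groups and had to be lower late. It was at least 5.46-fold lower in KO and at least 7.35-fold lower in WT. These bounds were not tested, and its fitted differences were -3.94 ± 0.49 in KO (adjusted p = 0.00117, limma) and -2.98 ± 0.49 in WT (adjusted p = 0.00694). The muscle sums were 0.30 to 0.32 in KO late against 0.49 to 0.57 in KO early, and 0.23 to 0.29 in WT late against 0.42 to 0.82 in WT early, and their part in the values of the family was not tested. Of 6 endothelial markers 2 were measured, without Cdh5.

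The remaining ligands of the family were Egf, Epgn, Nrg2, Nrg3 and Nrg4, of which Egf and Epgn could be tested. Egf, the ligand that gives the family its name, read -5.09, -5.05 and -5.10 on the KO late arrays, against -6.16, -5.78 and -5.61 on the KO early arrays. All 3 arrays of each late group and 2 of 3 of each early group read it above background, so it passed the filter only through the late groups. The difference was 0.77 ± 0.19 in KO (adjusted p = 0.0183, limma, n = 3) and 0.61 ± 0.19 in WT (adjusted p = 0.064). Epgn, epigen, is an Egfr ligand of low affinity. It read -5.13, -4.76 and -5.35 on the KO late arrays, against -7.13, -6.52 and -5.53 on the KO early arrays. On the WT arrays it read -5.57, -5.88 and -5.91 at late passage, against -5.41, -5.69 and -5.30 at early passage. It rose in KO by 1.32 ± 0.33 (adjusted p = 0.0212), while in WT the difference was -0.32 ± 0.33 (adjusted p = 0.564). Epgn was dim, being well above background on 3 KO late, 2 WT late, 1 KO early and 3 WT early arrays.

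Epgn, Ereg, Areg and Btc are neighbours on chromosome 5, in that order among protein-coding genes, between Mthfd2l and Parm1. The passage differences in KO, in the order of the genes, were 1.32 for Epgn, 1.41 for Ereg, 0.34 for Areg and 2.07 for Btc. In WT they were -0.32, 1.74, 1.79 and 1.74 in the same order. The values of Btc are fitted ones, its early arrays being below background. The adjacent genes were thus not uniform in either genotype. The flanking genes were looked up after the values of the ligands were known. Mthfd2l, a mitochondrial folate enzyme, had 0.24 ± 0.083 in KO (adjusted p = 0.067), and Parm1, a mucin-like membrane protein, had -0.23 ± 0.54 (adjusted p = 0.797). In WT Mthfd2l had -0.016 ± 0.083 (adjusted p = 0.923) and Parm1 had 1.08 ± 0.54 (adjusted p = 0.214). Between KO late and WT late Parm1 differed by -1.63 ± 0.54 (adjusted p = 0.091), which did not pass. Further out, Cxcl1, a chemokine that attracts neutrophils, was 2.41 ± 0.57 higher in KO late than in WT late (adjusted p = 0.032) and rose with passage in KO by 1.86 ± 0.57 (adjusted p = 0.0459). With passage in WT Cxcl1 had -0.41 ± 0.57 (adjusted p = 0.675).

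Of 8 sheddases and iRhoms, the proteases that release the ligands and their carriers, 2 were lower in KO late than in WT late and 0 were higher, while 6 did not pass. Over all genes 4.37% were lower. The list had a median of -0.11 beside -0.0081 over all genes. The called genes were Frmd8, which stabilises the iRhom complex with the protease, at -0.59 ± 0.12 (adjusted p = 0.0192), and Rhbdf2, iRhom2, which carries the protease to the surface, at -0.37 ± 0.097 (adjusted p = 0.0431). Both also fell with passage in KO, where 9% of all genes did, Rhbdf2 by 0.61 on the log2 scale (adjusted p = 0.0032) and Frmd8 by 0.57 (adjusted p = 0.0106). In WT 1 of the 8, Rhbdf2, fell by 0.37 (adjusted p = 0.0374), where 4.37% of all genes fell. Those proteins act on several ligands of the family.

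Of 19 adaptors and kinases of the Ras-MAP kinase relay, which joins the receptors to ERK, 2 rose and 0 fell with passage in KO, where 9.95% of all genes rose and 18.9% changed. They were Braf, a kinase above ERK, by 0.57 ± 0.15 (adjusted p = 0.0245) and Gab1, a docking protein of the receptors, by 0.62 ± 0.17 (adjusted p = 0.0313). In the other 4 comparisons limma called 0 of the 19, and those with an unadjusted p under 0.05 numbered 1 for KO early against WT early, 7 for KO late against WT late, 3 for WT late against WT early and 2 for the difference of the passage responses. Over all genes those shares were 5.99%, 24.9%, 28.4% and 13.9% in the same order. Of 16 other effectors, 2 were higher in KO late than in WT late, where 3.46% of all genes were: Stat5a, a transcription factor that receptor kinases can activate, by 0.90 ± 0.15 (adjusted p = 0.00957) and Pik3r1, a regulatory subunit of PI3-kinase, by 0.83 ± 0.16 (adjusted p = 0.0168). With passage 1 of the 16 rose and 0 fell in each genotype, where 9.95% of all genes rose in KO and 6.22% in WT. A count of 1 in 16 is near those shares and is no result about the list. The gene in KO was Plcg1, a phospholipase that makes inositol trisphosphate, by 0.46 ± 0.14 (adjusted p = 0.0432). The gene in WT was Pik3cb, a catalytic subunit of PI3-kinase, by 0.71 ± 0.16 (adjusted p = 0.0221).

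Of 21 measured genes of receptor turnover and inhibition, 3 were higher and 1 was lower in KO late than in WT late, where 3.46% of all genes were higher and 4.37% lower. The lower one was Lrig1, a membrane protein that promotes the breakdown of ErbB receptors, at -0.78 ± 0.15 (adjusted p = 0.0149), and it also fell with passage in KO by 0.63 (adjusted p = 0.0161). Its relative Lrig3 was higher by 0.59 ± 0.15 (adjusted p = 0.0424). Also higher were Ptpn2, a tyrosine phosphatase, by 0.48 ± 0.11 (adjusted p = 0.0257) and Erbin, a scaffold that binds Erbb2, by 0.36 ± 0.089 (adjusted p = 0.0388). With passage 0 of the 21 rose and 2 fell in KO, where 9.95% of all genes rose and 9% fell. In WT 1 rose and 0 fell, where 6.22% of all genes rose and 4.37% fell. These counts are near those shares and are no result about the list. Beside Lrig1, Hgs, which sorts receptors in endosomes, fell in KO by 0.25 (adjusted p = 0.0457). Ptprj, a receptor phosphatase, rose in WT by 0.71 ± 0.19 (adjusted p = 0.0444). The calls of Erbin, Hgs and Ptprj were lost with the replicate number as a block in limma's model (adjusted p = 0.0553, 0.0695 and 0.0698). The list medians stayed between -0.081 and -0.0076 in these 3 comparisons, beside -0.047 to -0.0043 over all genes.

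Of 26 measured targets of receptor-ERK signalling, 12 rose and 0 fell with passage in WT, where 6.22% of all genes rose and 4.37% fell, with a list median of 0.94 beside -0.0043 over all genes. In KO 11 rose and 4 fell, where 9.95% of all genes rose and 9% fell, with a median of 0.22 beside -0.047. The early response transcription factors led in both. Egr2 rose by 2.77 ± 0.23 in KO (adjusted p = 0.000199) and by 2.26 ± 0.23 in WT (adjusted p = 0.000975). Fos rose by 2.47 ± 0.25 in KO and by 2.03 ± 0.25 in WT, and Egr1 by 1.94 ± 0.20 in KO and 1.63 ± 0.20 in WT. Myc, which drives growth, rose by 0.94 ± 0.096 in KO and 0.95 ± 0.096 in WT.

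Against that, 4 targets fell in KO: Hmga2, a chromatin protein, by 1.30, Ccnd1, cyclin D1, by 1.24, Dusp4, an ERK phosphatase, by 1.21 and Etv1, an ETS transcription factor, by 1.18 on the log2 scale (adjusted p from 0.0126 to 0.0438). At late passage 0 targets were higher in KO and 2, both phosphatases that limit MAP kinases, were lower, where 3.46% of all genes were higher and 4.37% lower. Dusp4 differed by -2.23 ± 0.29 (adjusted p = 0.00346) and Dusp6 by -0.61 ± 0.13 (adjusted p = 0.0222). The median of the 26 was -0.35 beside -0.0081 over all genes, and 18 of the 26 had negative differences. At early passage and in the difference of the passage responses limma called 0 of the 26. An unadjusted p under 0.05 was found for 3 and 7 of them, where 5.99% and 13.9% of all genes had one. Between KO late and WT late it was found for 14 of the 26, where 24.9% of all genes had one. The macrophage marker sums given above were lower in KO late too, and their part in these values was not tested.

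**Figure D4:**
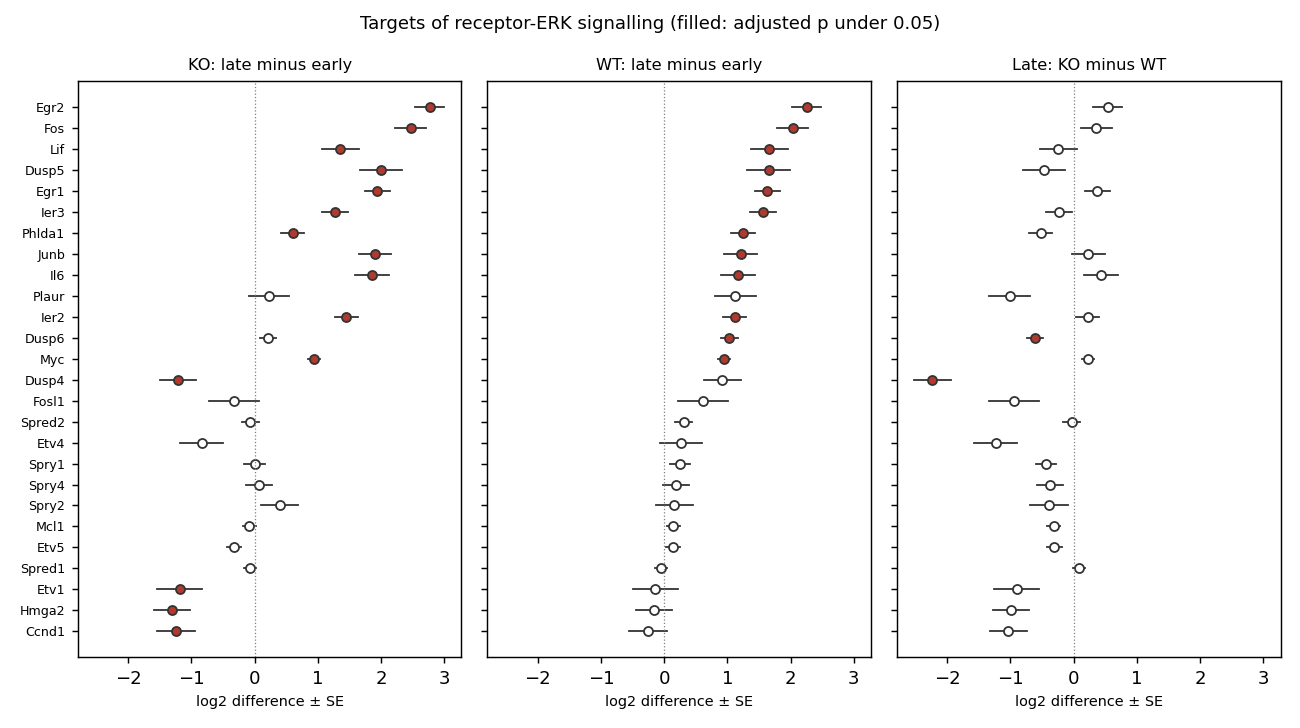
Log2 differences with their SE (x axis) of 26 targets of receptor-ERK signalling, for late minus early passage in KO, the same in WT, and KO minus WT at late passage, ordered by the WT passage difference. Filled points had an adjusted p under 0.05: 15 in KO, 12 in WT and 2, Dusp4 and Dusp6, between KO late and WT late.

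The genes whose levels followed each called member most closely over the 12 arrays were named by the smallest root mean square difference of the centred log2 values among 14569 genes with a symbol. For Errfi1 they were Egr1 (0.16), Arc (0.23) and Casp4 (0.23), of which Egr1 and Arc are early response genes. For Hbegf they were Dusp1 (0.19), a MAP kinase phosphatase, Noct (0.21) and Ier3 (0.24). For Ereg they were Mir22hg (0.23), Ier3 (0.23) and Noct (0.26). Ereg and Hbegf thus had Ier3, an early response gene, and Noct, the circadian protein nocturnin, in common.

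For the dim ligands the likeness was looser. The nearest genes of Areg were Gm5124 (0.33), Ramp3 (0.45) and Ccdc85a (0.45), and those of Btc were 4930555G01Rik (0.38), Gcnt2 (0.40) and Ccn1 (0.41). Those of Erbb2 were Thnsl2 (0.078), Pgbd1 (0.078) and Ifrd2 (0.084), and Erbb2 itself varied little. Dusp1, the nearest to Hbegf, shared its order of groups, with passage differences of 1.04 in KO and 1.90 in WT and a late KO minus WT difference of -0.78.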

How the data were processed

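The deposited scanner files hold 1 intensity per spot, made by the authors with Agilent Feature Extraction, which subtracted background and detrended, per the file headers (version 11.5.1.1; the submitters' processing notes give 10.7.3.1). RNA of 12 fibroblast cultures (100 ng each, Cy3) was measured. Outlier spots and controls were left out, spots of a probe were averaged, and log2 values were set relative to the 75th percentile of each array (568.9 to 902.5). Probes well above background on all 3 arrays of a group were kept, and the brightest stood for its gene. Of 28290 probes with RefSeq accessions, 27969 matched a symbol. limma 3.58.1 in R 4.3.3 fitted the 4 groups (8 residual and 2.22 prior degrees of freedom). The number of arrays limits the precision. The scanner files hold no mean spot signal, so the normexp alternative (offset 50) used the median signal, with flagged local backgrounds (653 to 1254 spots per array) set to the array's median. The authors' deposited log2 table served as another alternative. The scale and centring of that table were read from its values, with a correlation of at least 0.998 per array with the scanner values; its filter stays unknown.

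Pairing of arrays by replicate number was read from the data: same-numbered deviations from the group means correlated at 0.141 to 0.279 in all 3 pairs between WT early and WT late, at -0.0915 to 0.0791 between KO early and KO late, and over 0.1 in 6 of 18 pairs in all. Same-numbered arrays thus deviated together in the WT groups. Each number was also 1 slide, so a shared slide and shared embryos cannot be told apart. Between genotypes the same-numbered value was 0.156 for replicate 3 of KO early and WT early. It was 0.147 for replicate 1 of KO early and WT late, and 0.152 for replicate 3 of WT early and KO late. The members, gene lists and tests were chosen with earlier results of these data known. Named were all members, up to 4 genes per list, direction and comparison with the smallest adjusted p, the tested ligands outside the member list, and 3 alike genes per called member. Of the cell type marker lists only some such genes were named. On simulated arrays 200 of the 19507 genes were changed, with 1 normal spread per gene for all groups. There 58.2% of genes changed by 1 on the log2 scale between KO late and WT late were recovered, and 14.9% of those changed by 0.5. The real comparison had 1528 calls and group spreads that differed, so these rates need not hold for it.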

Additional observations from a re-analysis of the deposited data

Results flagged for a closer look

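Areg was set apart because the KO minus WT difference was positive on all 3 slides at early passage (1.81, 0.12 and 0.81) and negative on all 3 at late passage (-0.20, -0.60 and -0.80). The difference between these, the passage response of KO minus that of WT, was -1.45 ± 0.55 (SE, 3 arrays per group) and did not pass over all genes (adjusted p = 0.297, limma). Epgn was set apart for the opposite course. Its KO minus WT difference was negative on all 3 slides at early passage (-1.72, -0.83 and -0.23) and positive on all 3 at late passage (0.44, 1.12 and 0.56). Its late minus early difference was positive on all 3 slides in KO (2.00, 1.76 and 0.19) and negative on all 3 in WT (-0.16, -0.18 and -0.61). For Epgn the difference of the responses was 1.63 ± 0.47 (adjusted p = 0.201), which did not pass either. Both probes were dim. Arrays of 1 slide share a replicate number, and same-numbered arrays deviated together across passages in WT but not in KO.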

How the results depend on the processing

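With 3 arrays per group the precision is low, and the groups were not matched for Xist. Of 8 members, 1, Erbb2, was called between KO late and WT late. With only the 2 groups 1 was called as well, but it was Egfr in place of Erbb2. The count was 2 after normexp, 2 with the mean of a gene's probes and 3 with array weights per group. It was 0 with no filter on dim probes, 0 with Xist as a covariate, 0 without KO late replicates 1 and 2 together, and 0 to 2 with 1 array left out. With the replicate number as a block it was 0, and the block changed no other count of members (4 and 5 with passage in KO and WT). The block changed no call of a member with passage in WT, where same-numbered arrays deviated together. Between late and early passage in KO, 4 members were called, 4 to 5 with 1 array left out and 1 without KO late replicates 1 and 2. In WT, 5 were called, 4 to 5 with 1 array left out and 3 each after normexp, with only the 2 groups, with array weights and in the authors' deposited table, whose fit held 6 members, without Areg and Btc. Early passage and the difference of responses had 0 members called throughout.

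Reversed signs came in uncalled differences, and the cause was not tested. For Ereg between KO late and WT late the value was 0.012 after quantile normalization, 0.0032 in the deposited table and 0.035 without KO late replicates 1 and 2. After normexp it was -0.015 for Btc at early passage and -0.036 for Areg with passage in KO. With Xist as a covariate it was 0.0026 for Hbegf at early passage and 0.014 for the Nrg1 difference of responses. With 1 array left out, the KO minus WT difference ranged from -0.30 to 0.20 for Hbegf and from -0.14 to 0.061 for Nrg1 at early passage. At late passage that range was -0.074 to 0.094 for Ereg and -0.21 to 0.055 for Nrg1. For the difference of responses it was -0.17 to 0.094 for Nrg1 and -0.021 to 0.28 for Errfi1, and for Egfr with passage in WT -0.087 to 0.28.

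The higher and lower calls over all genes turned with the scaling. Between KO late and WT late they were 675 and 853. Quantile normalization gave 996 and 789 there, and normexp gave 856 and 796. With passage in WT they were 1213 and 852, with 1038 and 977 by quantile and 801 and 1244 by normexp. With passage in KO they were 1941 and 1755, against 1275 and 1548 after normexp. Single slides give values without a test and no count, and the fit of only 2 groups has no value for the difference of responses.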
